A study of Homo sapiens with 6 samples.

Results

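The genes described here are 10 members of the cohesin machinery, namely STAG1, STAG2, PDS5A, PDS5B, SMC1A, SMC3, RAD21, NIPBL, ESCO1 and ESCO2. They were taken by gene symbol from the 23228 genes listed in the count tables, and 10 of 10 were among the 12796 genes with enough reads to be tested. The group was chosen by earlier results of these data, in which STAG1 and PDS5B were among the genes that were lower after PELP1 knockdown. Their differences between the groups are therefore given as a description, without a test.

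MDA-MB-231, a human line of triple negative breast cancer, was studied. RNA-seq was performed on 3 replicates of cells carrying a non-targeted control shRNA and 3 replicates of cells carrying a PELP1 shRNA (PELP1-KD). In both groups the shRNA was stably expressed after puromycin selection, and the cells were grown in RPMI medium with serum. The labels do not say whether replicates were cultures derived separately, so that the spread given below is that between these samples and may be technical. The PELP1-KD cells carried only 1 shRNA against PELP1, delivered by lentivirus.

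Cohesin is a ring of the ATPases SMC1A and SMC3, closed by the kleisin RAD21 and bound by a stromal antigen subunit, either STAG1 or STAG2. It is loaded on chromatin by NIPBL with its partner MAU2, extrudes DNA loops that often end at CTCF sites, and holds sister chromatids together until anaphase. PDS5A and PDS5B bind the ring and act both in its release by WAPL and in its maintenance, and the acetyltransferases ESCO1 and ESCO2 modify SMC3 so that cohesion is kept.

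The shRNA target was checked first. PELP1, a coregulator of nuclear receptors and other transcription factors, had 968, 1274 and 1069 counts in control and 557, 637 and 712 counts in PELP1-KD replicates. Its level fell from 57.8 ± 2.14 CPM (counts scaled to the library size by TMM, with SD, n = 3) to 29.6 ± 0.876, which is 48.9% lower, with a log2FC of -0.97 (SE 0.055, Benjamini-Hochberg adjusted p = 1.48e-11 over all tested genes in the quasi-likelihood test of edgeR). A two-sided exact permutation test of 3 against 3 gave p = 0.1, the smallest value it can give. The libraries held 17304864 to 23132102 reads assigned to genes, and across all tested genes 3103 were lower and 2904 higher in PELP1-KD at an adjusted p below 0.05, with a median log2FC of 0.0014. With library totals alone in place of TMM the split was 2418 lower and 3817 higher, and the median moved to 0.051. Of the line's own markers, VIM, CD44 and CAV1 were abundant, at 2221, 1209 and 701 CPM in control cells, and ESR1, PGR and CDH1 had at most 4 counts in any replicate, whereas GATA3, also taken as a gene this line lacks, had 114 to 190. The 4 markers of other cell types summed to 5.46 to 7.17 CPM in control and 17.2 to 19.9 CPM in PELP1-KD replicates. PTPRC (leukocytes) and DCN (fibroblasts) were at 0 in every replicate, PECAM1 (endothelium) had 2 to 7 counts, and COL1A1 made up nearly all of the sum. In such bulk samples fewer cells expressing a gene and less RNA per cell cannot be told apart.

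The paralogs are the main contrast here, and their promoters are shown so that the windows can be set side by side. RefSeq promoter windows on GRCh38.p14, from 250 bases before to 50 bases after a transcription start, were at hand for 7 of the 10 members. RAD21, ESCO1 and ESCO2 were not among them. In the sequences, printed 5′ to 3′ on the strand of the gene, capitals mark matches on either strand to TTTCCCGC or TTTGGCGC (forms of the E2F site), CCAAT (the NF-Y box) and TTTGAA (the cell cycle homology region, CHR). The E-box CACGTG, bound by MYC and MAX, was searched as well. For STAG2, which has 3 listed starts, the first is given.
STAG1, chr3:136752329-136752628, minus strand: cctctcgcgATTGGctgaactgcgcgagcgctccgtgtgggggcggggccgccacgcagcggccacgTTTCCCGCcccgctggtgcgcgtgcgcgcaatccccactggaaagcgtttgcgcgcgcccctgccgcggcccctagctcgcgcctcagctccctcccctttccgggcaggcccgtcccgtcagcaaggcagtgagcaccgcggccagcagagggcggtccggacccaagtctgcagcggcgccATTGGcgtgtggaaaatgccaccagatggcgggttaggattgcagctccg
STAG2, chrX:123960310-123960609, plus strand: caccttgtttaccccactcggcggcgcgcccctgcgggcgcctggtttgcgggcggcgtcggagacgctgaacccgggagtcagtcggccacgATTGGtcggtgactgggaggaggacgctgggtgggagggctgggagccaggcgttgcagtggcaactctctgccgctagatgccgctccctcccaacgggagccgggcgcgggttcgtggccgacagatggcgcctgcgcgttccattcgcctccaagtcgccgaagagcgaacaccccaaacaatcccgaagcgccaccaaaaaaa
PDS5A, chr4:39977862-39978161, minus strand: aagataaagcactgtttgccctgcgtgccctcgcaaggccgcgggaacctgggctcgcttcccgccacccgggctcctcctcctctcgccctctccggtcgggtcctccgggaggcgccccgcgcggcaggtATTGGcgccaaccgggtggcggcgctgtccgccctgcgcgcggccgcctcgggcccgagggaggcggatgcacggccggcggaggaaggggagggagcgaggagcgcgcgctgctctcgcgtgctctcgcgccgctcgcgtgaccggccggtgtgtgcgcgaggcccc
PDS5B, chr13:32586202-32586501, plus strand: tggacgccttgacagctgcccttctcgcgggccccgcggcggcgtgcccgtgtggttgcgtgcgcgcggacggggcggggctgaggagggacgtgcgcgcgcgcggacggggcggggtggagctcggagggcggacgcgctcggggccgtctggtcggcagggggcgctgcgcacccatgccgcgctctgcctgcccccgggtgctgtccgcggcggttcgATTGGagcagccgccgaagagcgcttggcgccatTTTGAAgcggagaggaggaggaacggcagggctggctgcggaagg

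All 4 of these windows held CCAAT, with 2 matches in STAG1, and 34.6% of all 35116 listed promoters hold that box. The STAG1 window also held TTTCCCGC, present in 1.63% of all promoters, and the PDS5B window held TTTGAA, present in 15.2%. Over the 10 windows of the 7 members, TTTCCCGC was found in 2 (STAG1 and SMC1A), TTTGGCGC in 2 (STAG2 and NIPBL; 0.652% of all promoters), CCAAT in 5 and TTTGAA in 2 (PDS5B and SMC3). CACGTG was found in 0 of 10 windows and in 7.26% of all promoters. No matches to different motifs overlapped each other. A match here is a stretch of letters and was not tested as a binding site.

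STAG1 had the largest difference of the 10 genes and STAG2 came after STAG1 and PDS5B. STAG1 stood at 79.2, 76.2 and 76.0 CPM in control and at 54.7, 50.1 and 50.0 CPM in PELP1-KD replicates. Every PELP1-KD replicate was thus below every control replicate, and the mean went from 77.1 ± 1.78 to 51.6 ± 2.70 CPM (33.1% lower, log2FC -0.58, SE 0.050). STAG2, the other form of the same subunit and the one carried by most cohesin in many somatic cells, stood at 156, 150 and 146 CPM in control and at 118, 105 and 115 CPM in PELP1-KD replicates. Its groups did not overlap either, and its mean was 25% lower (150 ± 5.20 to 113 ± 7.13 CPM, log2FC -0.42, SE 0.045).

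PDS5B and PDS5A moved unequally. PDS5B was measured at 53.3, 45.4 and 44.8 CPM in control and at 31.9, 33.3 and 33.9 CPM in PELP1-KD replicates. Control replicate 1 was well above the other controls, and all 3 PELP1-KD replicates were below the lowest control (47.8 ± 4.72 to 33.0 ± 1.04 CPM, 31.0% lower, log2FC -0.53, SE 0.065). PDS5A was measured at 352, 318 and 342 CPM in control and at 314, 304 and 302 CPM in PELP1-KD replicates. These groups lay close together, with the highest PELP1-KD replicate just under the lowest control, and the mean was 9.14% lower (337 ± 17.3 to 307 ± 6.23 CPM, log2FC -0.14, SE 0.036).

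The ring genes differed less than STAG1, STAG2 and PDS5B. RAD21 differed more than PDS5A, and SMC1A and SMC3 were close to PDS5A. RAD21, the most abundant transcript of the group, stood at 673, 621 and 617 CPM in control and at 541, 498 and 521 CPM in PELP1-KD replicates, with no overlap. Its mean was 18.4% lower (637 ± 31.3 to 520 ± 21.4 CPM, log2FC -0.29, SE 0.035). SMC1A stood at 229, 220 and 214 CPM in control and at 190, 192 and 196 CPM in PELP1-KD replicates, 12.9% lower on average (log2FC -0.20, SE 0.035). Here the PELP1-KD replicates were tightly grouped below the controls. SMC3 stood at 243, 229 and 219 CPM in control and at 213, 186 and 214 CPM in PELP1-KD replicates, 11.3% lower on average (log2FC -0.17, SE 0.047). PELP1-KD replicate 2 was far below the other PELP1-KD replicates, and without it the log2FC of SMC3 was -0.11 and that of PDS5A -0.13.

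For the loader and the acetyltransferases the groups overlapped. NIPBL stood at 123, 115 and 117 CPM in control and at 111, 105 and 117 CPM in PELP1-KD replicates (log2FC -0.084, SE 0.045). ESCO1 stood at 29.9, 29.1 and 29.5 CPM in control and at 29.4, 27.0 and 27.1 CPM in PELP1-KD replicates (log2FC -0.083, SE 0.062). ESCO2, the form that acts in S phase, stood at 52.6, 47.3 and 44.4 CPM in control and at 47.1, 42.1 and 46.1 CPM in PELP1-KD replicates (log2FC -0.091, SE 0.063). Without PELP1-KD replicate 2 the log2FC of NIPBL was -0.045 and that of ESCO2 -0.043, and without replicate 3 that of NIPBL was -0.13. In each of these genes the highest PELP1-KD replicate lay within the control range.

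**Figure D1:**
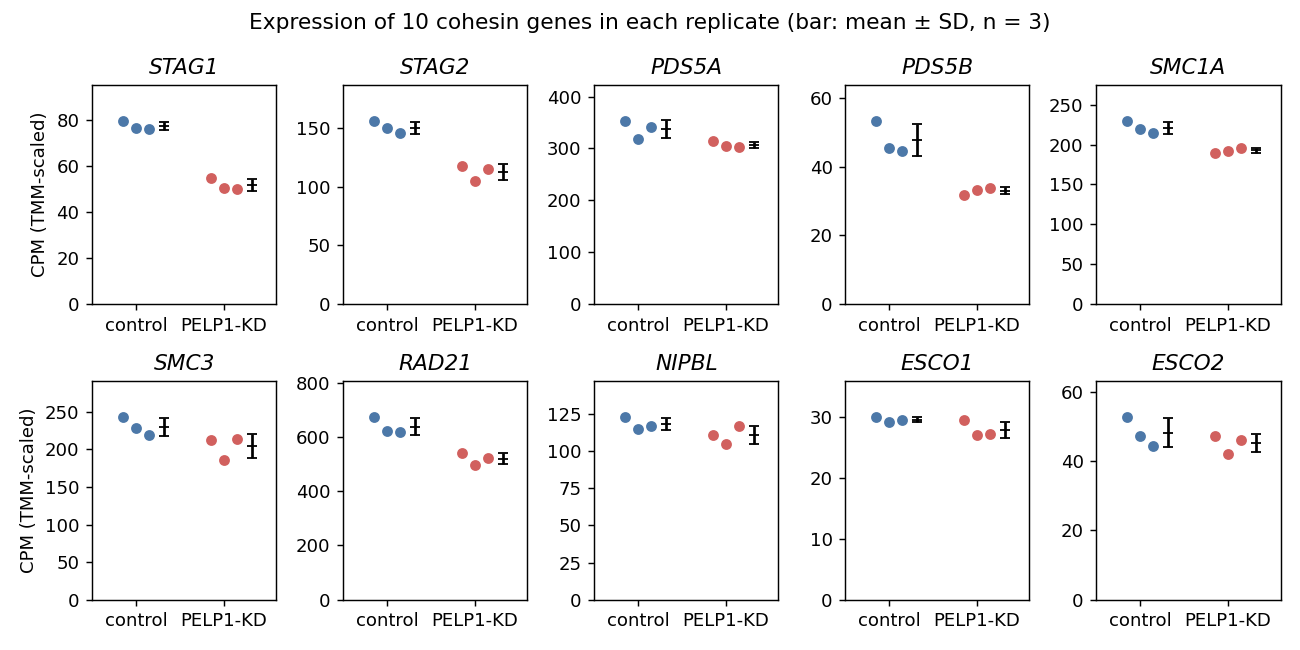
Each panel plots the TMM-scaled CPM of a cohesin gene (vertical axis, from 0) in the 3 control and 3 PELP1-KD replicates, in the order of their numbers, with the mean and SD of each group as a bar beside the points. STAG1, STAG2 and PDS5B show the widest gaps between groups, and the groups overlap for NIPBL, ESCO1 and ESCO2.

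Over the 10 genes, 7 were past the adjusted p of 0.05 of edgeR's quasi-likelihood test in the lower direction, beside 24.2% of all tested genes, and 0 in the higher direction, beside 22.7%. The same 7 had every PELP1-KD replicate below every control replicate, beside 28.0% of all tested genes, and 0 had every PELP1-KD replicate above, beside 27.0%. Since the genes were chosen on this contrast, nothing is read from these counts. The 3 not called were NIPBL, ESCO1 and ESCO2 (log2FC -0.091 to -0.083), and of those called PDS5A and SMC3 had the smallest values (-0.14 and -0.17). The median log2FC of the 10 genes was -0.19, and their summed level ranged from 1850 to 1991 CPM in control and from 1543 to 1650 CPM in PELP1-KD replicates.

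Control replicate 1 stood apart in these genes. It had the highest value of the 3 controls in 10 of 10 members, whereas it was the highest control for 42.0% of all tested genes. Without it, log2FC was -0.56 for STAG1, -0.39 for STAG2, -0.45 for PDS5B and -0.25 for RAD21, and ESCO2 moved from -0.091 to -0.027. Members called lower in that setting numbered 7, beside 3066 of all tested genes, and the median of the 10 was -0.15. Since the members were chosen on this contrast, nothing is read from this count. Counts of control replicate 1 also differed more from those of the other controls (chi-square per degree of freedom of 3.84 and 4.06) than those did from each other (1.46). PELP1-KD replicate 2 likewise differed more from the other PELP1-KD replicates (2.75 and 2.71) than those did from each other (1.51). PELP1-KD replicate 2 was the lowest of its group in 6 of 10 members, beside 37.3% of all tested genes, and the highest in 0, beside 36.9%.

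The STAG pair was compared within each replicate, so that library scaling cancels. The ratio of STAG1 to STAG2 CPM was 0.508, 0.509 and 0.522 in control and 0.463, 0.478 and 0.434 in PELP1-KD replicates. Every PELP1-KD ratio was below every control ratio. On the log2 scale the ratio went from -0.96 ± 0.023 to -1.13 ± 0.071, and the difference between the log2FC of the paralogs was -0.17 (SE 0.067). Per kilobase of exon (RPKM), STAG1 made up 34.6%, 34.7% and 35.3% of STAG1 plus STAG2 in control and 32.6%, 33.3% and 31.2% in PELP1-KD replicates. The share therefore moved by a few percentage points, from 34.9 ± 0.358% to 32.3 ± 1.07%, while the summed level of both fell by 27.8% (28.2 ± 0.85 to 20.4 ± 1.13 RPKM).

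In the PDS5 pair the shift in ratio was wider and the shift in sum was smaller. The ratio of PDS5B to PDS5A CPM was 0.151, 0.143 and 0.131 in control and 0.102, 0.110 and 0.112 in PELP1-KD replicates, without overlap. On the log2 scale it went from -2.82 ± 0.11 to -3.22 ± 0.075, and the difference between the log2FC of the paralogs was -0.39 (SE 0.074). Without control replicate 1 that difference was -0.34. PDS5B made up 12.3%, 11.6% and 10.8% of the summed RPKM of the pair in control and 8.58%, 9.20% and 9.38% in PELP1-KD replicates (11.6 ± 0.744% to 9.05 ± 0.422%). Because PDS5A carried most of the sum, the summed level fell by 11.7% (31.3 ± 1.68 to 27.6 ± 0.432 RPKM).

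**Figure D2:**
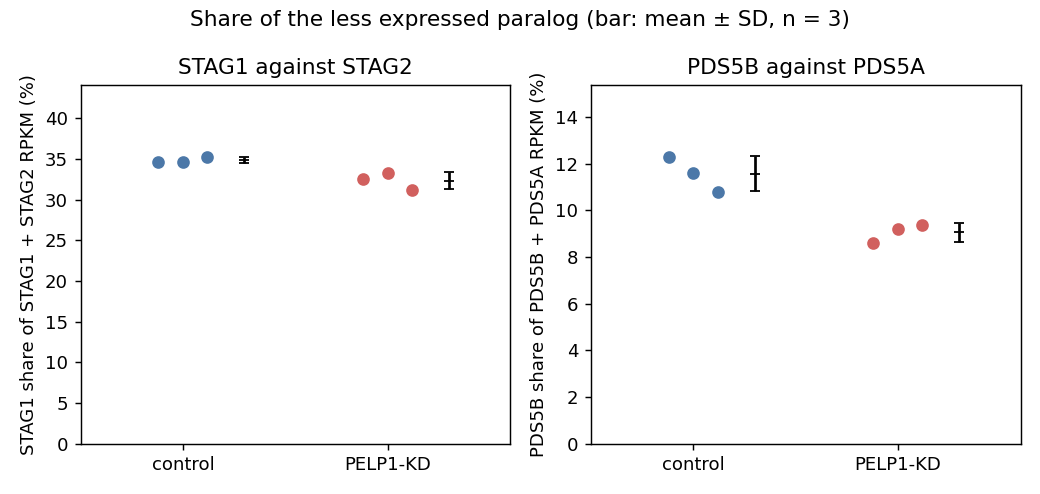
The panels plot, in percent from 0, the share of STAG1 in the summed RPKM of STAG1 and STAG2 and the share of PDS5B in that of PDS5B and PDS5A, for each control and PELP1-KD replicate, with mean and SD (n = 3) as bars. In both pairs every PELP1-KD replicate lies below every control replicate, at means of 32.3% against 34.9% and 9.05% against 11.6%.

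Reads of 50 bases could be told apart between the paralogs. In the GENCODE 29 transcripts 0 of 8076 words of 50 bases in STAG1 also occurred in STAG2, and 0 of the 12287 in PDS5A occurred in PDS5B. The coding sequences were 72.2% identical over 3709 aligned bases for the STAG pair and 70.3% over 3974 for the PDS5 pair, and the longest identical run was 21 and 20 bases. STAG1 did share 20% of its words with PCCB, a subunit of propionyl-CoA carboxylase on the opposite strand whose exons overlap those of STAG1 over 1664 bases. How strand was used in the counting is not given in the sources used here, and without strand reads in that stretch cannot be told apart. PCCB itself went from 42.5 ± 1.87 to 48.1 ± 1.88 CPM (log2FC 0.18, SE 0.055, adjusted p = 0.0113, edgeR), opposite in direction to STAG1. RAD21 shared 12.8% of its words with other genes, most of them with UTP23 on the opposite strand (log2FC -0.067, SE 0.059), and SMC3 shared 7.93%.

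Levels differed widely within the group. By RPKM over merged exons in control cells, RAD21 was highest at 103 ± 5.05 and PDS5B lowest at 3.62 ± 0.357, a ratio of 28.4. SMC3 (53.9 ± 2.72), PDS5A (27.6 ± 1.42), SMC1A (21.1 ± 0.735) and STAG2 (18.4 ± 0.635) followed RAD21 in that order without overlap of neighbours. STAG1 (9.83 ± 0.226) and NIPBL (9.44 ± 0.319) overlapped in range, as did ESCO2 (6.03 ± 0.522) and ESCO1 (5.58 ± 0.0787). With the longest transcript as the length, STAG2 (24.9) exceeded SMC1A (22.3), ESCO2 (12.3) exceeded NIPBL (11.3), and PDS5B (6.38) was level with ESCO1 (6.18), so that these neighbours have no settled order. In PELP1-KD cells the levels over merged exons were 84.0 ± 3.45 RPKM for RAD21, 13.8 ± 0.871 for STAG2, 6.58 ± 0.345 for STAG1 and 2.50 ± 0.0785 for PDS5B.

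Most members had transcripts of low GC content, and several were long. These features were not used directly in the choice, but log2FC, which was, varied with GC content across all genes. Their transcripts had a median GC content of 39.2%, beside 48.1% over the 12317 tested genes with a known transcript, and a median length of 6050 bases, beside 3686. RAD21 (3749 bases), ESCO2 (3922) and SMC3 (4114) were close to the median length of tested genes, and SMC1A (47.2% GC) to their median GC content. With the tested genes split into 5 bins of equal size by GC content, 8 of the 10 members fell in the lowest bin (29.6% to 40.8% GC). PDS5A fell in the next and SMC1A in the middle bin. Across all genes of a bin the median log2FC was -0.13 in the lowest, with 45.2% of genes called lower, and 0.11 in the highest, with 10.1% called lower. The median of the members, -0.19, is to be read beside these values. Replicates within a group differed along the same axis, since genes of the lowest GC bin were shifted by 0.067 (median, log2) and those of the highest by -0.062 in control replicate 1, and by -0.051 and 0.049 in PELP1-KD replicate 2. The part of GC content, length or library preparation in the members' differences was not tested.

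**Figure D3:**
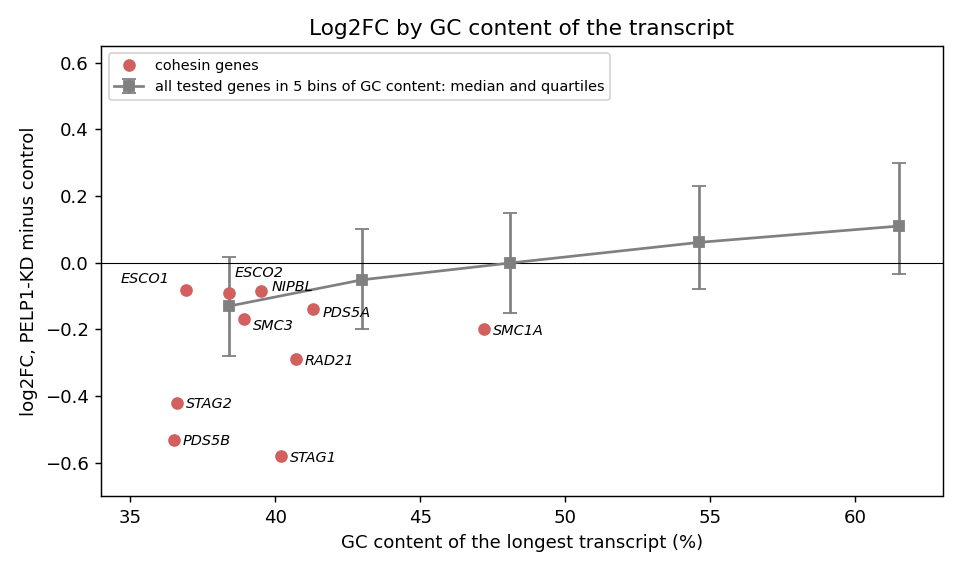
The horizontal axis gives the GC content of the longest transcript in percent and the vertical axis the log2FC of PELP1-KD minus control. Grey squares and bars are the median and quartiles of all tested genes in each of 5 bins of GC content, rising from -0.13 to 0.11, and red points are the 10 cohesin genes, of which STAG1, PDS5B and STAG2 lie well below the lower quartile of the lowest bin (-0.28).

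Log2FC was then adjusted for transcript length, GC content and expression by regression over the 12317 tested genes with a known transcript. After this, 5 members were below 0 and 5 above, beside a median of 0.016 over all adjusted genes. STAG1 was at -0.43, PDS5B at -0.33, STAG2 at -0.19, RAD21 at -0.10 and SMC1A at -0.072. PDS5A (0.055), SMC3 (0.021), NIPBL (0.11), ESCO1 (0.077) and ESCO2 (0.057) were above 0, and the median of the members was -0.026. No SE was computed for adjusted values. The unadjusted SE of these 5 genes was 0.036 to 0.063, so the sign of the smaller values is not settled. The paralog differences were -0.24 for STAG1 against STAG2 and -0.39 for PDS5B against PDS5A. The direction of PDS5A and SMC3 thus depended on this adjustment, while STAG1, STAG2, PDS5B, SMC1A and RAD21 were below 0 in each of the 14 alternatives run.

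**Figure D4:**
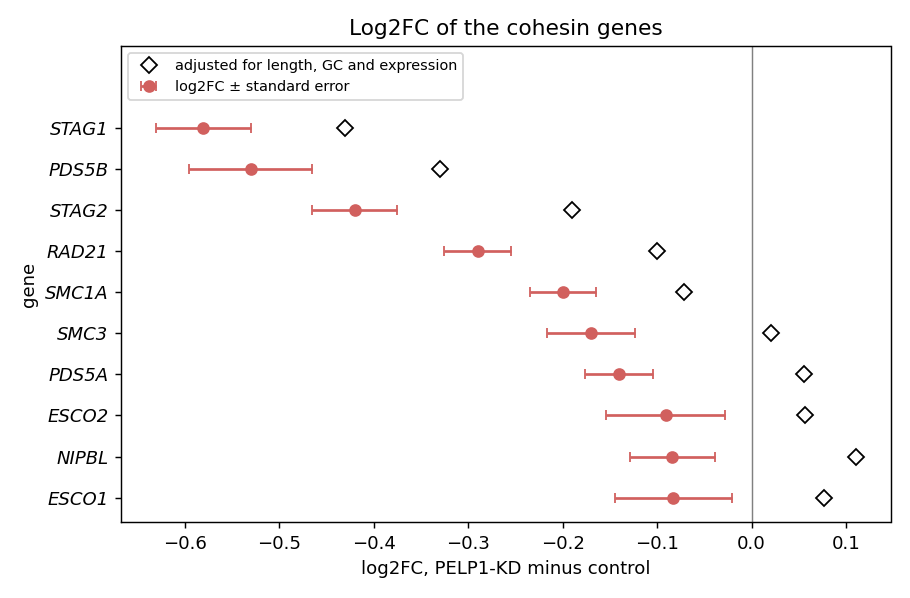
Each row is a cohesin gene, with its log2FC of PELP1-KD minus control and standard error in red and the value adjusted for transcript length, GC content and expression as an open diamond. Values run from -0.58 for STAG1 to -0.083 for ESCO1, and after adjustment 5 genes lie to the left of 0 and 5 to the right.

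The genes whose profile over the 6 replicates was nearest to that of STAG1 (Euclidean distance of log2 CPM centred on each gene's mean) were ARMCX2 (distance 0.0156), the transcriptional repressor BACH1 (0.0454) and the collagen crosslinking enzyme LOX (0.0497). The distance includes the group difference, so genes picked by it have a log2FC near that of the gene they were matched to. For STAG1 (-0.58) the values were -0.57, -0.56 and -0.56. STAG2 (0.226) and PDS5B (0.233) were the nearest members. For PDS5B the nearest genes were C4orf19 (0.0547), LRP5L (0.0560) and the ion cotransporter SLC12A2 (0.0778), with log2FC values of -0.51, -0.51 and -0.57.

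Among 12 other genes of the cohesin cycle, tested over all genes, 4 were lower, 1 was higher and 7 were not called. Their median log2FC was -0.059. Of all tested genes, 24.2% were lower and 22.7% higher. WAPL (listed as WAPAL), which opens the ring and releases cohesin, fell from 163 ± 8.38 to 127 ± 3.21 CPM (log2FC -0.36, SE 0.041, adjusted p = 5.17e-07, edgeR), and its log2FC adjusted for length, GC content and expression was -0.19. CDCA5 (sororin), which protects cohesion from WAPL, fell from 246 ± 5.15 to 215 ± 4.59 CPM (log2FC -0.19, SE 0.033, adjusted p = 7.61e-05, edgeR). The loop anchor protein CTCF was lower at 76.1 ± 2.69 against 84.4 ± 0.648 CPM (log2FC -0.15, adjusted p = 0.00862, edgeR), and SGO2 (listed as SGOL2), a protector of centromeric cohesin, at 143 ± 12.1 against 161 ± 10.0 CPM (log2FC -0.17, adjusted p = 0.0115, edgeR). The calls of CTCF and SGO2 were lost in edgeR with library totals alone (adjusted p = 0.0648 and 0.0624), that of CTCF without PELP1-KD replicate 3 (0.0644) and that of SGO2 without PELP1-KD replicate 2 (0.0944). Adjusted for length, GC content and expression, the log2FC of CTCF was -0.066 and that of SGO2 turned to 0.084. HASPIN (listed as GSG2), a histone kinase that acts at centromeres, was higher at 39.8 ± 1.21 against 34.2 ± 1.55 CPM (log2FC 0.22, SE 0.058, adjusted p = 0.00391, edgeR).

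The loader partner MAU2 (log2FC -0.057), the SMC3 deacetylase HDAC8 (0.029), separase ESPL1 (0.052), its inhibitor securin PTTG1 (-0.014), SGO1 (listed as SGOL1; -0.060), and the mitotic kinases PLK1 (-0.062) and AURKB (-0.014) were not called, with adjusted p between 0.179 and 0.792 in edgeR. Without control replicate 1, PLK1 was at -0.089 with an adjusted p of 0.0346 in edgeR. Thus neither MAU2 nor the separase and securin genes, which act when the ring is cut at anaphase, passed the test.

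Of the meiotic subunits, REC8 had 7, 9 and 10 counts in control and 16, 27 and 21 in PELP1-KD replicates (0.458 ± 0.0918 and 0.993 ± 0.239 CPM). Its control counts were mostly under the minimum of 10 and it entered the test only through the PELP1-KD replicates, so no test of it is given. RAD21L1 had 12, 17 and 10 counts in control and 20, 20 and 18 in PELP1-KD replicates (log2FC 0.41, adjusted p = 0.269, edgeR). SMC1B and STAG3 had at most 2 counts in any replicate, below the floor of 3 counts, and were not tested. Meiotic forms were therefore near the limit of detection beside the mitotic ones.

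Factors that establish cohesion at the replication fork showed small differences. Of 9 tested, 2 were lower, 1 was higher, and the median log2FC was 0.017. The share lower, 22.2%, was near the 24.2% of all tested genes, of which 22.7% were higher. The checkpoint mediator CLSPN was at -0.18 (adjusted p = 0.00178, edgeR), and CHTF8 (-0.14, adjusted p = 0.00738) and CHTF18 (0.18, adjusted p = 0.0241), both of the alternative clamp loader, moved in opposite directions. CHTF18 was no longer called without control replicate 1, PELP1-KD replicate 2 or PELP1-KD replicate 3 (0 higher in each), and 1 factor was lower without PELP1-KD replicate 3.

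The other SMC complexes held both falls and rises. Their largest falls, -0.37 for SMC4 and -0.36 for SMC5, lay between those of STAG2 (-0.42) and RAD21 (-0.29). Of 8 condensin genes, 5 were lower and 2 higher, with a median log2FC of -0.12. Over all tested genes 24.2% were lower and 22.7% higher. The ATPases SMC4 (-0.37, SE 0.041, adjusted p = 2.26e-07, edgeR) and SMC2 (-0.19, adjusted p = 0.00192) were lower. So were NCAPG of condensin I (-0.26, adjusted p = 6.66e-06) and NCAPG2 of condensin II (-0.17, adjusted p = 1.98e-04). The subunits NCAPD3 (0.15, adjusted p = 8.54e-04) and NCAPH2 (0.13, adjusted p = 0.0121) were higher. Both belong to condensin II, whose genes thus moved in both directions. Without control replicate 3 the number higher was 1. Of 8 tested genes of the SMC5/6 complex, which acts in DNA repair, 5 were lower and 1 higher (median -0.15). The shares over all tested genes are those given for condensin. SMC5 was at -0.36 (SE 0.054, adjusted p = 1.75e-05, edgeR), SMC6 at -0.20 (adjusted p = 0.00107), NSMCE4A at -0.17 (adjusted p = 0.0197), SLF1 (listed as ANKRD32) at -0.16 (adjusted p = 0.0398) and NSMCE1 at 0.26 (adjusted p = 0.00497). The number of SMC5/6 genes lower was 3 without control replicate 1, PELP1-KD replicate 1 or PELP1-KD replicate 2, and the number higher was 2 without PELP1-KD replicate 2. After adjustment for length, GC content and expression the medians were 0.012 for condensin and 0.031 for SMC5/6.

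Of 12 proliferation genes, 8 were lower and 1 higher (median -0.11), with CDK1 at -0.25 (adjusted p = 5.83e-05, edgeR), CCNB1 at -0.20 (adjusted p = 1.04e-05), CCNA2 at -0.17 (adjusted p = 1.73e-04), TOP2A at -0.15 (adjusted p = 6.81e-04), and RRM2 in the other direction at 0.14 (adjusted p = 4.28e-04). Over all tested genes 24.2% were lower and 22.7% higher. The median of the proliferation genes was -0.0063 after adjustment for length, GC content and expression and -0.061 with library totals alone. The number of proliferation genes lower was 6 to 7 when a replicate was left out, and 6 with DESeq2 or with library totals alone. The part of proliferation in the level of cohesin transcripts was not tested.

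**Figure D5:**
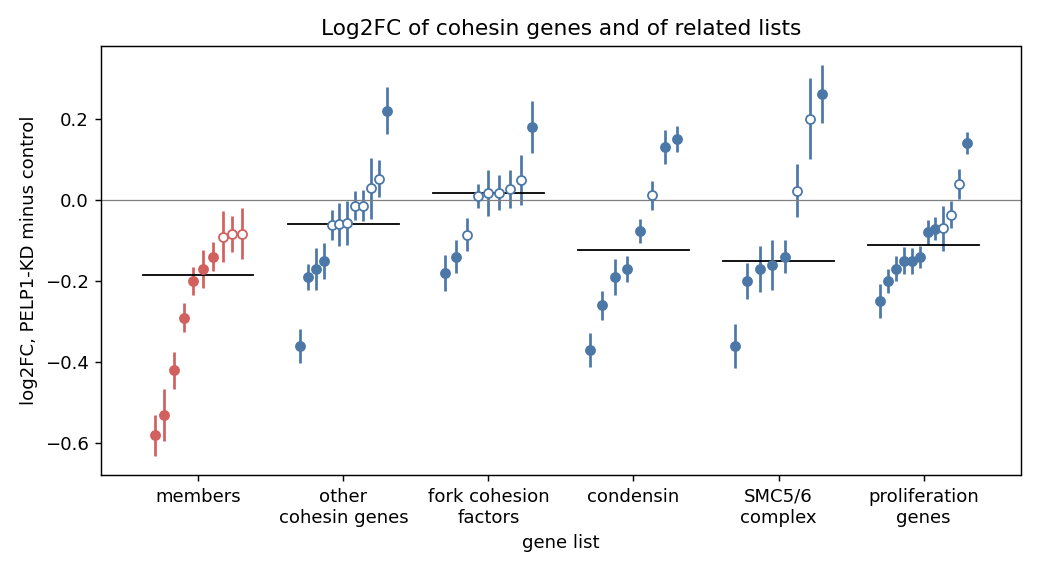
Points give log2FC of PELP1-KD minus control with standard errors for the tested genes of 6 lists, filled where the adjusted p was below 0.05 (edgeR) and open otherwise, and a black line gives the median of each list. The 10 members lie between -0.58 and -0.083 with a median of -0.19, and the medians of the other lists lie between -0.15 (SMC5/6) and 0.017 (fork cohesion factors). Since the members were chosen on this contrast, nothing is read from which of their points are filled.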

How the data were processed

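RNA-seq of poly(A) RNA from stranded libraries was sequenced by the study as single reads of 50 bases. The submitters' processing notes name bcl2fastq, TopHat2, SAMtools, HTSeq and the build hg19, and versions and the gene annotation are not given in the sources used here. The authors deposited whole-number counts per gene symbol for each replicate, without normalization. Closing totals that name no gene (41.0% to 41.4% of reads, mostly reads with several alignments, 32.5% to 32.9%) were left out, so near-identical genes lose reads. Without molecular identifiers reads are not independent molecules, and the detection floor of 3 counts covers counting error only.

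The members and gene lists were chosen with earlier results of these data known. Genes passing filterByExpr (minimum 10 counts) were scaled by TMM and tested in edgeR 4.0.16 (quasi-likelihood test, Benjamini-Hochberg adjustment over 12796 genes, R 4.3.3) in 3 control against 3 PELP1-KD replicates. SE is log2FC divided by the square root of F, and log2 CPM used a prior count of 2. The SE of a paralog difference treats both estimates as independent. RPKM used exon lengths of GENCODE 29 (GRCh38, not the build of the counts, so gene coordinates are not given), and 21536 symbols (92.7%) matched. Identity of paralogs was computed on coding sequences in place of the proteins. The scripts were first tested on simulated counts.

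Named genes are all members, all tested genes of the other cohesin and meiotic lists, in the remaining lists the lowest and highest log2FC with up to 3 further called genes per direction, PELP1, and the 3 nearest profiles of STAG1 and PDS5B. PCCB and UTP23 were named after their overlap was seen. Alternatives were RLE size factors, library totals alone, DESeq2 1.42.0, limma voom 3.58.1, no filter, a minimum of 10 counts per replicate, a replicate block, leaving out replicates in turn, the longest transcript as length, and adjustment for length, GC content and expression.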

Additional observations from a re-analysis of the deposited data

How the results depend on the processing

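The number of members called lower was 7 under each of the 13 tested alternatives, under which 2418 to 3335 of all tested genes were lower, and since the members were chosen on this contrast nothing is read from it. The members' log2FC kept their sign in each but the adjustment for transcript length, GC content and expression, where PDS5A was at 0.055, SMC3 at 0.021, NIPBL at 0.11, ESCO1 at 0.077 and ESCO2 at 0.057. Under the same adjustment SGOL2 was at 0.084, and the medians were 0.012 for condensin and 0.031 for the SMC5/6 complex. The cause was not tested. The median of the fork cohesion factors ranged from -0.0054 to 0.044 when a replicate was left out. With library totals alone, 2 other cohesin genes, 1 fork cohesion factor and 2 SMC5/6 genes were lower and 2 proliferation genes were higher, and with DESeq2 3 SMC5/6 genes were lower. Leaving out each replicate in turn gave 3 to 5 SMC5/6 genes lower and 1 to 2 higher, 1 to 2 fork cohesion factors lower and 0 to 1 higher, and 1 to 2 condensin genes higher. All RPKM levels except that of SMC3 moved by more than their SD with the longest transcript as length. DESeq2 called 4960 genes in all, beside 6007.

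Deviations of same-numbered replicates correlated little over all tested genes, at 0.039, 0.065 and -0.078, which does not settle whether they were paired. The lowest GC bin was shifted with the same sign in control and PELP1-KD replicates 1 (0.067 and 0.033) and 2 (-0.028 and -0.051). Replicates 3 differed in sign (-0.038 and 0.020). With the replicate block, 3335 genes were lower and 3140 higher, 6475 in all beside 6007, and the members called lower were 7. The members' SE of 0.035 to 0.065 on the log2 scale, from 3 replicates per group, limits what could be told apart from 0.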

Other observations

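The spread of the cohesin genes within a group, relative to counting error, differed from gene to gene. The chi-square of counts within groups per degree of freedom was 22.6 for RAD21, 18.5 for SMC3 and 10.3 for PDS5A, the members with the highest RPKM, whereas it was 2.73 for SMC1A, 1.81 for STAG1 and 0.746 for ESCO1. For ESCO1 the replicates of a group thus differed by about what counting error alone gives. At the same relative spread this measure rises with the number of reads, so it does not rank the genes by reproducibility. RAD21 had 10538 to 14115 counts per replicate and ESCO1 506 to 661. In control the SD was 31.3 CPM at a mean of 637 for RAD21 and 4.72 CPM at a mean of 47.8 for PDS5B.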
